A study of Mus musculus with 6 samples.

Results

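The genes of mouse chromosome 15 were followed by cytoband in mouse oviductal epithelial cells that carry a mutant p53. The deposited annotation placed 821 gene symbols on chromosome 15, of 24574 genes measured. Of these, 551 passed a filter on dim genes, which kept a gene when the higher of its group means exceeded 4.53, the median of all transcript clusters on the log2 scale. The other 270 were left out as dim. The chromosome was selected on its shift in the same comparison that is described here, and the filter was set on measured levels. The size of the shift is therefore a description, with no test of the chromosome against the rest. The 2 members nearest above the filter were Hoxc10, at 4.54 in its higher group, and I830127L07Rik, also at 4.54, and the nearest 2 below it were Kcnq3 at 4.52 and Muc19 at 4.51.

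Cells of the mouse oviduct, the counterpart of the fallopian tube, were transfected with a plasmid for p53 R273H or with the empty plasmid pCMV-Neo, and stable lines were isolated through antibiotic selection by clonal growth. RNA from consecutive passages gave 3 arrays of the p53 R273H line and 3 of the empty vector line. Both lines grew with serum, growth factor, insulin, transferrin, selenite and estradiol. The number of clones per line is not stated, so clone, line and plasmid cannot be told apart, and p-values measure the spread between passages.

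A mouse chromosome has its centromere at one end, and cytobands, the stripes seen after staining, divide it from band A next to the centromere to the highest letter at the other end. Genes in a band are neighbours, but mostly without a shared function, and they share the copy number of their chromosome and often its chromatin state. Chromosome 15 carries in order the growth hormone and LIF family receptors (A1), the Trps1 region (C), the Wisp1 and Ndrg1 region (D2), the Ly6 cluster of surface proteins (D3), Srebf2 (E1) and, near its far end, the type II keratin and Hoxc clusters (F2 and F3). DNA copy number was not measured here.

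Trp53, on chromosome 11, had a mean level of 9.39 ± 0.10 in the p53 R273H line and 10.06 ± 0.07 in the empty vector line (SD, n = 3 each), and whether this signal includes the plasmid's transcript is unknown. Of the 7 markers of oviductal epithelium 6 passed the filter, and Epcam was dim in both lines. The summed linear level of these markers ran from 5415 to 5574 in p53 R273H and from 5016 to 5070 in empty vector, but Krt7, Krt8 and Krt18 of this list lie on chromosome 15 themselves. Against the direction of the sum, the oviductal markers Ovgp1, Foxj1 and Krt8 were called lower, by limma's log2 differences of -1.28, -0.88 and -1.19. Krt7 was called higher, and the others past the filter were not called. The sum over 4 fibroblast markers, all past the filter, was 387 to 431 in p53 R273H and 115 to 146 in empty vector. Most of this gap came from a single marker, and Col1a2 of this list fell by 1.04 on the log2 scale. The sum over 3 endothelial markers, also all past the filter, was 130 to 140 in p53 R273H and 73.5 to 80.3 in empty vector. Of these Kdr had a log2 difference of 1.76, while Cdh5 at 0.11 and Pecam1 at -0.0068 were not called. Of the leukocyte markers, Ptprc and Cd3e were dim in both lines, though Ptprc was called higher, with a log2 difference of 0.60. Cd68 had a mean level of 7.32 ± 0.07 in p53 R273H and 8.05 ± 0.08 in empty vector (SD, n = 3 each). The part of other cell types in the results was not tested.

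Across the chromosome, expression was lower in the p53 R273H line. The median log2 difference of the 551 genes, p53 R273H minus empty vector, was -0.39, which leaves 76.3% of the empty vector level at the median. The quartiles were -0.71 and -0.09, and 454 of the 551 genes (82.4%) lay below 0. Over the 12512 other genes with a location that passed the filter, the median was 0.01 and 48.5% lay below 0. In bulk RNA, fewer cells with these transcripts and less RNA per cell cannot be told apart.

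Array by array, the median of chromosome 15 genes relative to the empty vector mean was -0.39, -0.41 and -0.41 on the p53 R273H arrays. On the empty vector arrays, each set against the other two, it was -0.00875, -0.00955 and 0.02. The groups did not overlap, and the 3 passages of the mutant line lay within 0.02 of each other. In the 9 pairings of a mutant with an empty vector array, the median ran from -0.44 to -0.40, while over all genes that passed the filter the pairings gave -0.0099 to 0.02.

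Gene by gene, limma called 294 of the 551 lower (53.4%) and 23 higher (4.17%) at a Benjamini-Hochberg adjusted p under 0.05 over all 24574 genes, and 234 were not called. Of all 14898 genes that passed the filter, 18.3% were called lower and 18.2% higher. All 3 mutant arrays lay below all 3 empty vector arrays for 340 members, or 61.7%, where the share over all genes that passed the filter was 26.8%. Because the same contrast picked the chromosome, nothing more is read from these counts. Differences were mostly modest: 375 members lay between -1 and 0, 79 were called at least 2-fold lower, and 8 were called at least 2-fold higher. Shares of all genes at the 2-fold cutoff were not set beside them, so nothing is read from the 2-fold counts.

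The filter itself could favour genes that differ, since 25 members passed through the empty vector line alone and 16 through the p53 R273H line alone. The 510 members above 4.53 in both lines had a median of -0.40. Without any filter the 821 genes had a median of -0.19, and of the 270 dim genes 1 was called lower and 7 higher. The share of dim genes called over the whole series was not set beside these counts, so no direction is read from them.

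**Figure D1:**
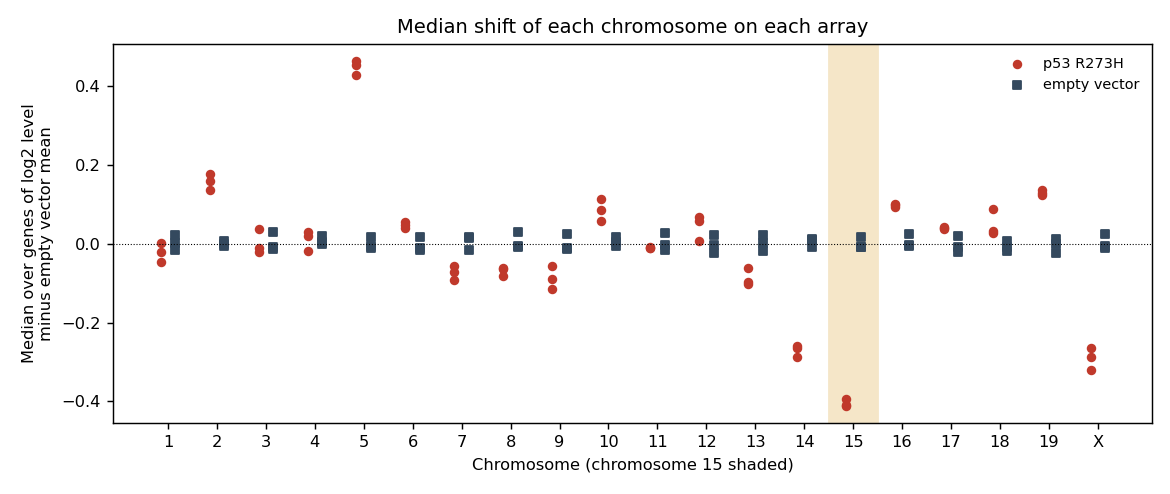
Median over the genes of each chromosome of the log2 level minus the empty vector mean (vertical axis), for each p53 R273H array (circles) and each empty vector array (squares, each against the other two). Chromosome 15, shaded, sits between -0.41 and -0.39 on the p53 R273H arrays and within 0.02 of 0 on the empty vector arrays.

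Among 20 chromosomes (1 to 19 and X), chromosome 15 had the lowest median. The nearest were X at -0.30 and chromosome 14 at -0.28. Chromosome 5 had the highest median, 0.44, with 453 of 825 genes called higher, and chromosome 2 followed at 0.15. The plot of chromosome medians shows these shifts on each p53 R273H array, with the empty vector arrays near 0. Whether chromosome 15 differs from X or 14 was not tested.

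The size of the difference went with signal level. Divided into 3 ranges by mean level over all arrays, the dimmest 184 members had a median of -0.14, the middle 183 one of -0.50 and the brightest 184 one of -0.52. Of the brightest range, 131 were called lower, 7 higher, and 90.8% lay below 0. Genes of other chromosomes in the same level ranges had medians of -0.01, 0.03 and 0.05 in that order. The bands also differ in median level.

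**Figure D2:**
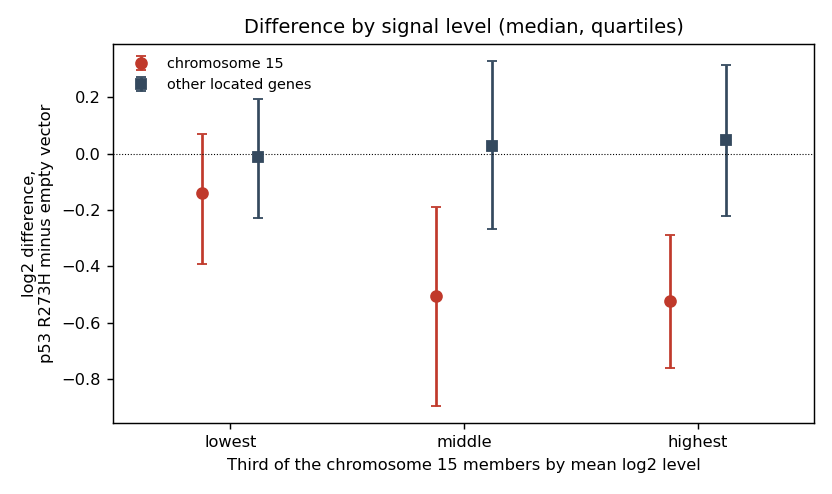
Log2 difference, p53 R273H minus empty vector (vertical axis: median with quartile bars), for chromosome 15 members and for other located genes in the same 3 ranges of mean log2 level. The chromosome 15 median is -0.14 in the dimmest range and -0.52 in the brightest, against -0.01 and 0.05 for other genes.

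A single cytoband was given for 495 of the 551 members. The other 56 had chromosome 15 alone, a range of bands, or a text that was cut off. 13 bands held at least 10 members, 456 in all, of which 243 were called lower and 18 higher. Every one of these 13 medians was below 0, and for each of the 13 the median on every mutant array lay below that on every empty vector array. The mutant arrays' band medians ran from -0.96 to -0.15 and those of the empty vector arrays from -0.09 to 0.09. Of 284 bands on other chromosomes with at least 10 genes, 150 (52.8%) had a median below 0 and 10 (3.52%) were at or below -0.39.

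**Figure D3:**
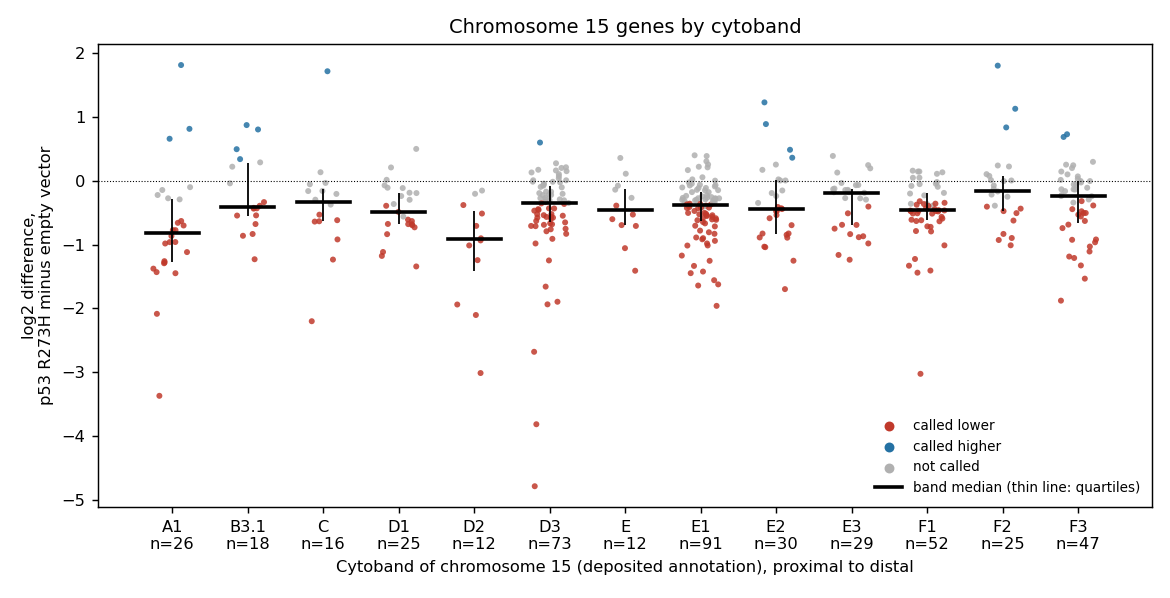
Log2 difference, p53 R273H minus empty vector (vertical axis), of each chromosome 15 gene in the 13 bands with at least 10 members (horizontal axis), coloured by whether limma called it. Black bars are band medians, all below 0, the lowest in D2 at -0.92 and A1 at -0.82 and the highest in F2 at -0.17 and E3 at -0.19.

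Bands A1 and A2 lie next to the centromere. Band A1 had 26 members with a median of -0.82, of which 18 were called lower and 3 higher. Without any filter the A1 median was -0.28, closer to 0 than those of D3, E and E1 without a filter. With the stricter filter at the 75th percentile it was -0.86, and among the 13 bands only D2 at -0.92 was lower. The low rank of A1 therefore holds for brighter genes and not when dim genes are counted. Its median on the p53 R273H arrays lay between -0.87 and -0.84, and on the empty vector arrays between -0.04 and 0.09. The 9 members of band A2 all lay below 0, with a median of -1.13 and 8 called lower. Band B1, also with 9 members, had a median of -0.27, with 4 called lower.

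In A1, receptors of cytokines and hormones went both ways. Ghr, the growth hormone receptor and the largest rise of the band, had levels of 9.11, 8.88 and 8.82 in p53 R273H and 7.14, 7.03 and 7.20 in empty vector. It rose by 1.81 ± 0.11 (SE) on the log2 scale, and its groups were far apart. Lifr, the receptor for leukaemia inhibitory factor, rose by 0.66 ± 0.09. Osmr, the oncostatin M receptor of the same family, fell by 1.29 ± 0.10. Of 11 receptor and complement genes on chromosome 15 in this list, 6 passed the filter, with 2 called lower, 3 higher and a median of 0.18.

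Other A1 genes fell more steeply. Gdnf, a secreted neurotrophic factor, had levels of 3.70, 4.39 and 3.73 in p53 R273H and 7.24, 7.29 and 7.41 in empty vector. Its mutant levels were below the filter, and it fell by 3.37 ± 0.19, a size that rests on dim signals. Cdh6, a cadherin of cell contacts, had levels of 9.06, 9.13 and 9.11 in p53 R273H against 11.15, 11.19 and 11.21 in empty vector and fell by 2.08 ± 0.09. Rpl37, a protein of the large ribosomal subunit, fell by 1.38 ± 0.14, and Drosha, the nuclease that starts microRNA maturation, fell by 0.96 ± 0.11. Dab2, an endocytic adaptor placed in band A without a number, fell by 2.19 ± 0.10.

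In the B bands, exceptions stood beside falls. Ctnnd2, a delta-catenin of band B2, had levels of 6.85, 6.81 and 6.71 in p53 R273H and 4.58, 4.61 and 4.28 in empty vector, the largest rise of the chromosome at 2.30 ± 0.12. Its empty vector mean was under the filter, so this size and rank rest on a dim signal, and the highest value among the 510 members above the filter in both lines was 1.81. Trio, a guanine nucleotide exchange factor in B1, was bright in both lines, at 9.53 ± 0.05 and 9.53 ± 0.06 (SD, n = 3 each), and its difference of -0.0030 ± 0.09 was not called. Band B3.1 had 18 members and a median of -0.41, with 11 called lower and 4 higher. Vps13b, a lipid transfer protein, fell by 1.23 ± 0.10 there, and Ankrd46 rose by 0.80 ± 0.09. Without any filter the median of B3.1 was -0.04, so its size rests on the filter. In the small bands B3.2 and B3.3, with 6 and 4 members, the medians were -0.88 and -0.63, and Cox6c, a subunit of cytochrome oxidase in B3.3, fell by 0.67 ± 0.10.

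Bands C, D1 and D2 lie in the middle of the chromosome. C had 16 members and a median of -0.33, D1 had 25 and -0.49, and D2 had 12 and -0.92, the lowest of the bands with at least 10 members. All 12 members of D2 lay below 0 and 10 were called lower. In D1 22 of 25 lay below 0, with 13 called lower and 0 higher.

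Band C held opposite changes in 2 regulators of transcription. Zfpm2, a cofactor of GATA transcription factors, had levels of 4.34, 4.57 and 4.27 in p53 R273H and 6.63, 6.54 and 6.60 in empty vector and fell by 2.20 ± 0.11 (SE). Trps1, a GATA-type repressor, had levels of 6.18, 5.86 and 6.30 in p53 R273H and 4.47, 4.30 and 4.42 in empty vector and rose by 1.72 ± 0.13. In both, the lower group's mean was under the filter. In D1 the repressor Zhx2 fell by 1.34 ± 0.10, while Has2, a hyaluronan synthase, had a difference of -0.19 ± 0.16 that was not called. With the mean over its rows the Has2 difference was -0.39, also not called, limma adjusted p = 0.052. Myc, the growth-promoting transcription factor, whose band was not single in the file, had levels of 9.74, 9.61 and 9.60 in p53 R273H and 10.71, 10.77 and 10.80 in empty vector. It fell by 1.11 ± 0.09 with no overlap.

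Wisp1 and Ndrg1 are neighbours in D2. Wisp1, a secreted matricellular protein and Wnt target, had levels of 6.39, 6.51 and 6.51 in p53 R273H and 9.51, 9.53 and 9.40 in empty vector. Ndrg1, a stress-responsive gene, had levels of 7.93, 7.87 and 7.88 in p53 R273H and 9.75, 9.86 and 9.89 in empty vector. Wisp1 fell by 3.01 ± 0.09 and Ndrg1 fell by 1.94 ± 0.09, both with no overlap. Of 25 matrix and cell surface genes found on chromosome 15, 14 passed the filter, with 7 called lower, 1 higher and a median of -0.27.

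Band D3 held the 2 lowest members of the chromosome, Ly6a and Psca, but not the lowest median. Its 73 members had a median of -0.35, with 37 called lower, 1 higher and 35 not called. The Ly6 cluster encodes small surface proteins held by a lipid anchor. Ly6a had levels of 5.85, 6.38 and 5.77 in p53 R273H and 10.67, 10.84 and 10.85 in empty vector, and fell by 4.78 ± 0.17, the lowest value of the 551 members. Psca fell by 3.81 ± 0.19 to levels under the filter, and Ly6e, bright in both lines, fell by 1.89 ± 0.09. Of 15 Ly6 family genes on the chromosome, 11 passed the filter, and 6 were called lower and 0 higher, with a median of -0.52. Rad21, the cohesin subunit, had levels of 9.74, 9.72 and 9.81 in p53 R273H and 9.83, 9.84 and 9.79 in empty vector. Those ranges overlap, and its difference of -0.06 ± 0.09 was not called. In the RefSeq gene order Rad21 stood at rank 100, beside members of band C, while the median rank of D3 members was 193. Plec, a cytoskeletal linker, rose by 0.60 ± 0.10 and was the one D3 member called higher.

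The E bands carried a modest shift. E1, the band with the most members, had 91 with a median of -0.37, quartiles of -0.63 and -0.18, 48 called lower and 0 higher. Its median was between -0.43 and -0.37 on the p53 R273H arrays and between -0.05 and 0.03 on the empty vector arrays. E2 had 30 members with a median of -0.44, 17 lower and 4 higher. E3 had 29 with a median of -0.19, 11 lower and 0 higher. On p53 R273H replicates 1, 2 and 3 the E3 median was lower, at -0.37, -0.21 and -0.22. With the mean over rows it was -0.27. Another 12 genes were placed in E without a number, with a median of -0.46 and 7 called lower.

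Srebf2, the E1 gene for the transcription factor of sterol synthesis, had levels of 9.43, 9.43 and 9.38 in p53 R273H and 10.41, 10.44 and 10.44 in empty vector. It fell by 1.01 ± 0.08. Csdc2, an RNA-binding protein, fell by 1.56 ± 0.12, and Tst, a mitochondrial sulfurtransferase, fell by 0.94 ± 0.09. Atf4, the transcription factor of the amino acid response, did not follow its band: its levels were 9.16, 9.51 and 9.61 in p53 R273H and 9.59, 9.32 and 9.21 in empty vector, which overlap, and its difference of 0.06 ± 0.15 was not called. The ribosomal protein genes Rpl3 and Rpl8, also of E1, had differences of -0.11 ± 0.09 and -0.26 ± 0.10, neither of them called.

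In E2 the serine protease Tmprss6 fell by 1.70 ± 0.15, to a mean of 4.47 in p53 R273H, under the filter. Ttc38 rose by 0.89 ± 0.13, and Ppara, the lipid-sensing nuclear receptor, rose by 0.49 ± 0.10, with an empty vector mean under the filter. Parvb, an adhesion protein of E3, fell by 1.24 ± 0.13. Of 16 sterol and lipid genes found on chromosome 15, 10 passed the filter, and 6 were called lower and 1 higher, with a median of -0.68. The steepest in that list were Cyp2d22, a cytochrome P450 whose band was not single, which fell by 1.95 ± 0.09, and Csad of F3, which fell by 1.53 ± 0.09. Csad is an enzyme of taurine synthesis, so the list is broader than its name.

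At the far end, F1 kept to the chromosome's shift and F2 and F3 lay closer to 0. F1 had 52 members, a median of -0.45, 34 called lower and 0 higher. F2 had 25 members and a median of -0.17, with 9 lower and 3 higher, and F3 had 47 and -0.24, with 21 lower and 2 higher. On p53 R273H replicates 1, 2 and 3 the F3 median was lower, at -0.35, -0.30 and -0.27. The median level of F2 members, 5.90, was the lowest of the 13 bands, below the 8.13 of F1. With only genes above 6.68, the 75th percentile of all transcript clusters, the F2 median was -0.46 and that of F3 -0.49.

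Cpne8, a calcium-dependent lipid-binding copine of F1, had levels of 6.91, 6.78 and 6.69 in p53 R273H and 9.81, 9.80 and 9.83 in empty vector. It fell by 3.02 ± 0.10. Wnt10b, a Wnt ligand of F1, fell by 1.33 ± 0.22, to a mean of 4.67 in p53 R273H, near the filter. Rpap3 of F2, which helps assemble RNA polymerase, fell by 1.01 ± 0.11. Integrin genes of F3 parted: Itgb7, a leukocyte integrin chain, fell by 1.88 ± 0.11, and Itga5, the fibronectin receptor chain, rose by 0.73 ± 0.10. The p53 R273H mean of Itgb7 was 4.76, also near the filter. Hoxc10 had a difference of 0.24 ± 0.13 that was not called, and of 9 Hoxc genes 2 passed the filter, with 0 called.

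The type II keratins of F2 and F3, with the neighbouring type I gene Krt18, did not move together. Of 25 such genes on the chromosome 14 passed the filter, and 1 was called lower, 2 higher and 11 not, with a median of -0.03. Krt7, a keratin of simple duct epithelia, had levels of 9.78, 9.92 and 9.64 in p53 R273H and 7.81, 8.07 and 8.05 in empty vector, a rise of 1.80 ± 0.12. Krt8, which pairs with Krt18 in simple epithelia, had levels of 9.28, 9.32 and 9.11 in p53 R273H and 10.48, 10.44 and 10.35 in empty vector, and fell by 1.19 ± 0.10. Krt18 had levels of 11.23, 11.19 and 11.41 in p53 R273H and 11.07, 10.97 and 11.03 in empty vector. Its groups did not overlap, yet its difference of 0.25 ± 0.10 was not called. Krt8 and Krt18 are adjacent, with 0 other members between them in the RefSeq gene order.

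Promoters of these 3 keratin genes of simple epithelia are shown because their calls differed. Krt7 was called higher and Krt8 lower, and Krt18, next to Krt8, was not called. They come from RefSeq (build GRCm38.p6), 250 bases before to 50 after the gene start, with capitals for each CG and for TATAAA on either strand. Krt7 lies on the plus strand (chr15:101412153-101412452), Krt8 on the minus strand (chr15:102004293-102004592) and Krt18 on the plus strand (chr15:102027966-102028265).
Krt7: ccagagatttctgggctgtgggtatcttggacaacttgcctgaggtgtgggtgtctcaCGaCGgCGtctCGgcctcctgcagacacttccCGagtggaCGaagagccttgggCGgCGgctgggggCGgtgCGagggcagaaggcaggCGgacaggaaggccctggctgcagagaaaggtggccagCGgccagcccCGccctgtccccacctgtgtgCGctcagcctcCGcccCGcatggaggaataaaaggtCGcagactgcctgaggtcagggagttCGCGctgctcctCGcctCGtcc
Krt8: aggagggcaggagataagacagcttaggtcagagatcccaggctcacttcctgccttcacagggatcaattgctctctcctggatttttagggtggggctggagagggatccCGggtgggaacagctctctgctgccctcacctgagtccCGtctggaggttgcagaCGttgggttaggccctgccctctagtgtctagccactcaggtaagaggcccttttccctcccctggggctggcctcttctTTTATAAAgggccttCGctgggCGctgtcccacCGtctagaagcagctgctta
Krt18: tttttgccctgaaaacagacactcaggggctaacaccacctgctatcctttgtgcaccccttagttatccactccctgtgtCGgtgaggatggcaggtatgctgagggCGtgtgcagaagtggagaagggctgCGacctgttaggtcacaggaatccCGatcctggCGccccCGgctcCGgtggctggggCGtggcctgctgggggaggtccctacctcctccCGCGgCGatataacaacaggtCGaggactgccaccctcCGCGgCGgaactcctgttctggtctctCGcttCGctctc
Krt7 and Krt18 have 21 and 17 CG pairs in this window and Krt8 has 6. TATAAA was found in the window of Krt8, overlapping its match on the opposite strand, and in that of neither Krt7 nor Krt18. It stands in 14.2% of 27025 promoters of this length. These letters are a description and do not show which factor acts there.

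**Figure D4:**
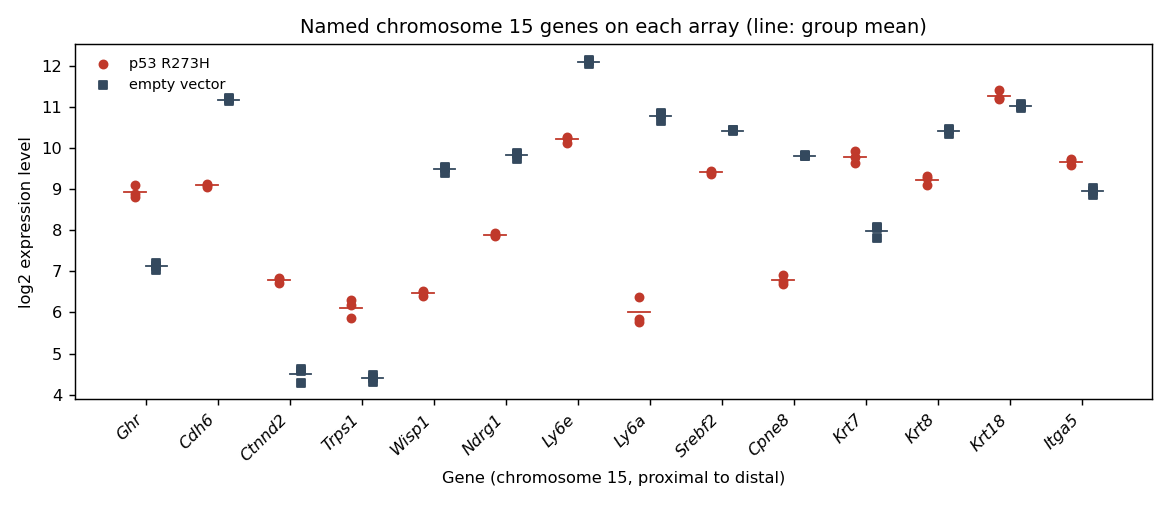
Log2 expression level (vertical axis) of 14 named chromosome 15 genes on each p53 R273H array (circles) and empty vector array (squares), with lines at group means, ordered from the centromere. Ly6a, Wisp1 and Cpne8 lie over 3 log2 units lower in p53 R273H, and Ghr, Ctnnd2, Trps1, Krt7 and Itga5 lie higher.

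Placing the members in RefSeq gene order gave a view that does not use the band texts, which overlap one another along the chromosome. Of the 551 members, all past the filter on dim genes, 539 were found on chromosome 15 of the RefSeq table. In 513 of 515 windows of 25 neighbouring members the median difference was below 0. The lowest window, from Sepp1 to Rai14 at the centromere end, had a median of -1.23, with 21 of its members called lower and 2 higher. The highest, from Cela1 to Krt18, had a median of 0.0053, with 4 called lower and 4 higher, and 13 of its 25 members were keratin genes. Median levels were 8.03 in the lowest window and 4.96 in the highest.

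On the 3 mutant arrays the windows ran from -1.24 to 0.05, and on the 3 empty vector arrays from -0.13 to 0.12. The tracks of the mutant arrays followed a similar course but parted in places. In the window centred on Lass5, for example, the medians on replicates 1, 2 and 3 were -0.10, -0.35 and -0.34. Cut into 10 equal stretches of the gene order, the stretch at the centromere had the lowest median, -0.70, the one at the far end the highest, -0.23, and all 10 were below 0. The longest unbroken run of members below 0 held 38 genes, from Card10 to Tab1 in the E bands, and the longest run above 0 held 5. The genes at the ends of windows and runs are named for their place.

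**Figure D5:**
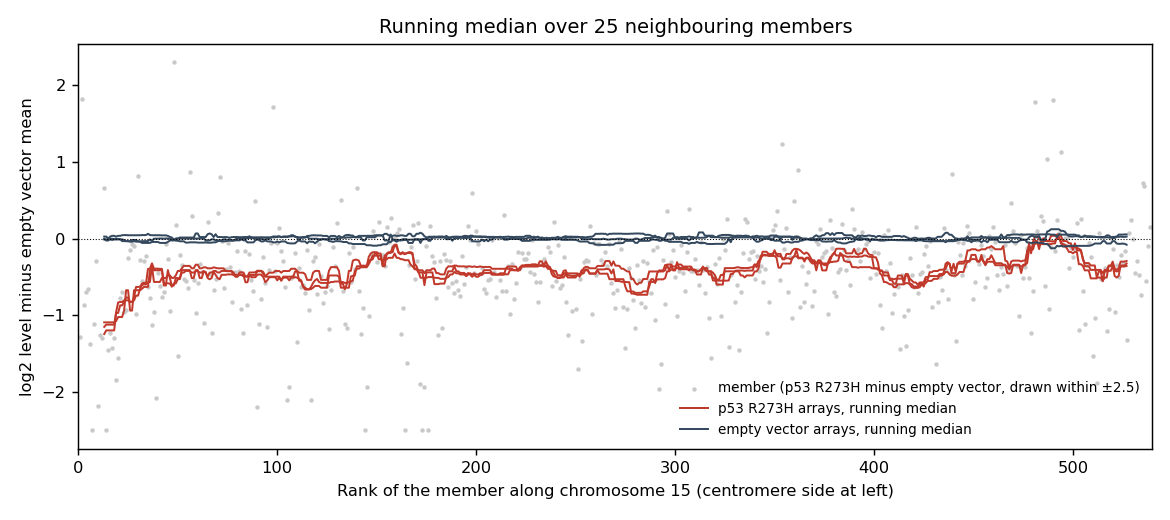
Log2 level minus the empty vector mean (vertical axis) against the rank of 539 members along chromosome 15, with the centromere end at left. Lines are running medians over 25 members for each p53 R273H array and each empty vector array, and grey points are single members, drawn within ±2.5. The p53 R273H lines run below 0 except near the keratin cluster, and the lowest stretch is at the left end.

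Members were also grouped by function, beside the 53.4% called lower over all 551. That share went with signal level: it was 24.5% in the dimmest range, 64.5% in the middle and 71.2% in the brightest. The brightest range had a median of -0.52. The lists were not matched for level, and whether any list differs from members of like level was not tested. All 12 mitochondrial protein genes of a list for chromosome 15 were called lower, with values from -0.94 to -0.36 and a median of -0.53. Of 16 genes for translation and transcription machinery 12 were called lower and 0 higher, and their median was -0.65. Of 30 genes for growth signals and transcription factors 13 were called lower, 3 higher and 14 not, with a median of -0.15.

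Some families are spread over the genome, and their members on chromosome 15 are listed beside those elsewhere. They were picked by symbol after the values were seen and carry no test. Chromosome 15 was chosen on its shift in this contrast, so lower values of its members here largely follow from that choice. Some of these sets hold few genes. The respiratory chain subunits Cox6c, Cyc1 and Ndufb9 of chromosome 15 had differences from -0.67 to -0.61, and 41 subunits on other chromosomes had a median of 0.05, with 5 called lower and 3 higher. Translation initiation and Argonaute genes with Eif symbols gave 6 on chromosome 15, with a median of -0.70 and 5 called lower. The 27 on other chromosomes had a median of -0.02, with 4 lower and 2 higher. Cytosolic ribosomal proteins gave 4 on chromosome 15, with a median of -0.35, and 71 elsewhere, with a median of -0.04. Mrpl13, a mitochondrial ribosomal protein of chromosome 15, had a difference of -0.51, and the 73 of its family elsewhere had a median of 0.10.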

How the data were processed

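Each of the 6 arrays, labelled with Affymetrix's WT PLUS kit per the labels, had a deposited log2 level for 41345 transcript clusters. Not given in the sources used here were array model, background correction, normalization and genome build. Array medians lay between 4.51 and 4.58. The log2 scale was checked against the ratio column that the authors deposited, whose log2 differed from the group difference by at most 6.64e-05. The deposited p-value columns were not used.

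Chromosome and band came from the location text of the authors' deposited comparison table. That text was cut at 87 characters, so 53 further genes that passed the filter lay on chromosome 15 in the RefSeq table (GRCm38.p6) only. A band was used where it was single and uncut. Rows naming several genes (145) were left out, 26 symbols altered by a spreadsheet were read from the annotation text, and the brightest row stood for each symbol, giving 24574 genes.

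All genes were fitted with limma 3.58.1 in R 4.3.3 (lmFit, eBayes, two-sided, no covariate), with Benjamini-Hochberg over all of them and a threshold of 0.05. The procedure was tested on simulated data. Members and lists were chosen with earlier results of these data known. Genes named are 20 landmarks, the largest called and non-overlapping fall and rise of each band with at least 10 members (predicted, olfactory, vomeronasal and small RNA genes left out), and the 2 largest changes of each list with at least 3 calls. Other names are said to be so or are window ends. A gene that this rule names and a marker gene are not reported here. Promoters were found for 277 of the 551 members, too few for any comparison of promoters. Alternatives were other normalizations, filters, variance options, a replicate block, the RefSeq chromosome and each array left out. The number of arrays limits the precision.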

Additional observations from a re-analysis of the deposited data

How the results depend on the processing

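The chromosome 15 median of -0.39 was below 0 under every alternative run. It was -0.35 with array medians subtracted, -0.19 with no filter on dim genes, -0.53 with the filter at the 75th percentile, -0.41 with the chromosome from the RefSeq table and -0.40 for genes above the threshold in both groups, an alternative added after the data were seen. The 294 members called lower numbered between 246 and 320 over all alternatives. The 23 called higher became 15 with the filter at the 75th percentile, where fewer genes were counted, and 17 to 30 under the other alternatives. Leaving out 1 array at a time gave medians from -0.41 to -0.39, at least 255 called lower and 19 to 23 called higher. With the replicate block 264 were called lower and 21 higher. Deviations of same-numbered arrays correlated at -0.07, 0.01 and 0.0027. No array correlated best with its own number, so the numbers are not taken to pair the arrays. Medians of the 13 bands all kept their sign, but their sizes moved with the filter. With none, A1 was -0.28, B3.1 -0.04, D1 -0.14, E2 -0.22, E3 -0.11, F1 -0.22, F2 -0.08 and F3 -0.09, and D2 was -0.80. With the filter at the 75th percentile, C was -0.63, D3 -0.52, E3 -0.46, F2 -0.46 and F3 -0.49. Of the named genes' values under the alternatives 749 kept their side of the threshold and 3 passed it newly. These were Krt18 and Rpl8 with trended and robust variance, limma adjusted p = 0.0037 and 0.0043, and Rpl3 with the mean over its rows, a difference of -0.36 at limma adjusted p = 0.029. Dim signals limit the lowest level range and bands such as F2, since the files do not say which signals exceed background.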

Other observations

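Among members outside the naming rule, small nucleolar RNAs of band E1 had the lowest values of that band. Snord83b had a difference of -1.96 ± 0.11 (SE) and Snord43 one of -1.64 ± 0.12 on the log2 scale, p53 R273H minus empty vector. In human cells both lie in introns of RPL3, and in the RefSeq gene order used here both come directly after Rpl3. By its brightest row Rpl3 itself had a difference of -0.11 ± 0.09, which was not called. With the mean over its rows the difference of Rpl3 was -0.36, limma adjusted p = 0.029. Of the 551 members 11 had a small RNA symbol, and whether the probes for such short RNAs also read precursor transcripts was not tested.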
